A study of Mus musculus with 4 samples.

Results

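The 10 genes described here are the cytosolic heat shock proteins HSPA1A, HSPA1B, HSPA8, HSPH1, HSP90AA1, DNAJB1, HSPB1, CRYAB, BAG3 and HSPE1, chosen by name. The table of values writes mouse symbols in capitals, and so does this text. A row was used for 8 of the 10 genes at 7 days post injury (dpi), among 14127 rows, and for 6 of the 10 at 21 dpi, among 11474 rows. HSPH1 and CRYAB were not analysed here at either time point, and HSP90AA1 and HSPE1 were not analysed at 21 dpi. HSPE1 does not match the name of the group, since it is the co-chaperonin of the mitochondrial matrix.

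RNA was sequenced from the lesion-site segment of the spinal cord of male mice after a moderate contusion (50 kdyne) of the mid-thoracic cord under isoflurane, at 7 or at 21 dpi. In both genotypes the coding region of the mouse Apoe gene was replaced by human sequence, ApoE3 in one and ApoE4 in the other, under the mouse gene's own control elements. By the study's methods the mice were 3 to 5 months old and each of the 4 groups had 3 mice. The table gives 1 value for each gene and group, so no spread between mice can be computed, no difference has a replicate check, and no test was run. Uninjured or sham cord was not part of these groups, so the levels cannot be read as an induction by injury.

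Heat shock proteins are chaperones that bind unfolded or partly folded proteins. The HSP70 proteins work in cycles of ATP binding and hydrolysis, in which J-domain proteins deliver the client and start hydrolysis, and nucleotide exchange factors release the nucleotide. HSP90 takes over later folding steps of many kinases and receptors, and small heat shock proteins hold unfolded clients without using ATP. Some members are made at a high constant level, such as HSPA8, whereas HSPA1A and HSPA1B are the stress-inducible HSP70 genes, which heat shock factor HSF1 switches on through heat shock elements in their promoters.

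The values are FPKM, fragment numbers scaled by the length of the transcript and by sequencing depth, so levels of different genes can be set side by side. Each ratio is log2 of ApoE3 over ApoE4 after adding 1 to both FPKM values. The added 1 makes the ratios of weakly expressed genes smaller. A negative ratio means a higher level in ApoE4. A gene was called when the ratio was past 1.3-fold (0.38 on the log2 scale). The rows name the comparison as ApoE3 versus ApoE4, and that order was used. The numbering of the sample columns allows the opposite reading, under which every genotype direction given here would be reversed.

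The constitutive HSP70, HSPA8, was the most abundant listed member in each of the 4 groups. Its level at 7 dpi was 1092 FPKM in ApoE3 and 1037 FPKM in ApoE4, the 163rd and 180th highest level of the table. HSP90AA1, the inducible cytosolic HSP90, followed with 472 and 441 FPKM at 7 dpi, and HSPB1, the small heat shock protein also called HSP25 in mice, came next with 84.1 and 125 FPKM. HSPA1A, DNAJB1, HSPE1 and BAG3 lay close together, between 21.7 and 40.4 FPKM over both genotypes, and HSPA1B was lowest with 3.15 and 5.73 FPKM. With 1 value per group, the order among these 4 close neighbours has no spread to be read against, and it differed between the genotypes: DNAJB1 led in ApoE3 and HSPA1A in ApoE4.

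**Figure D1:**
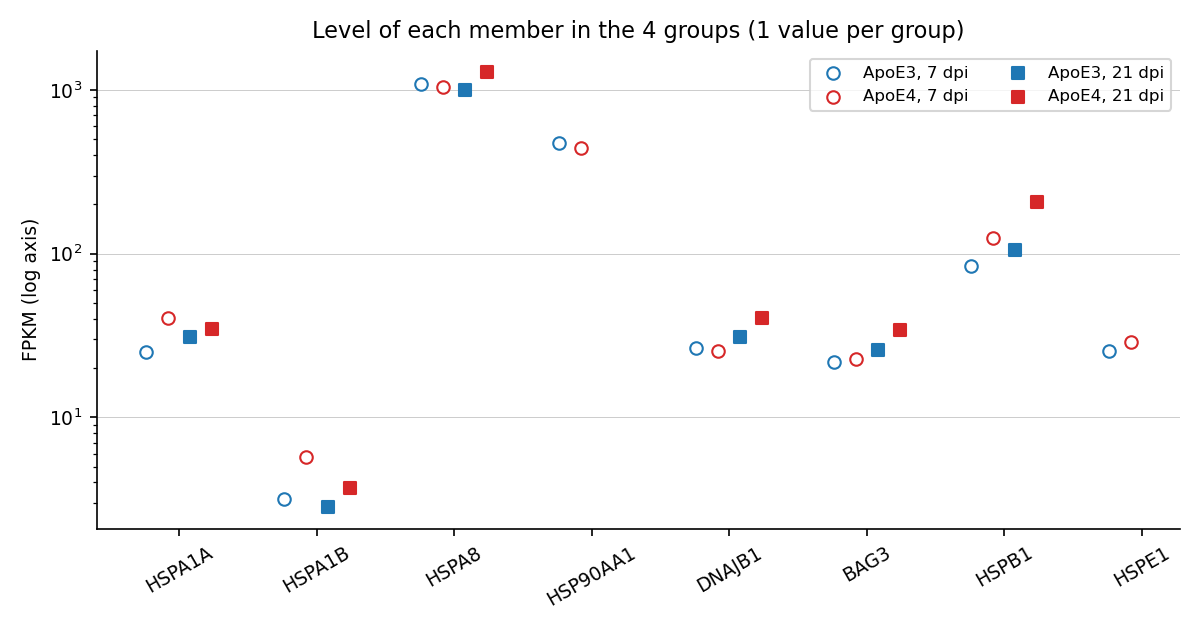
FPKM (log axis) of the 8 listed members in the 4 groups, 1 value per group, with open circles for 7 dpi, filled squares for 21 dpi, blue for ApoE3 and red for ApoE4. HSPA8 lies near 1000 FPKM in each group and HSPA1B under 6 FPKM, and HSP90AA1 and HSPE1 have values at 7 dpi alone.

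Several of these genes have near-identical copies in the genome, which limits how reads can be divided among them. Of all windows of 100 bases, the read length, in the protein-coding transcripts of HSPA1A in GENCODE vM21, 56.5% also occurred in a transcript of another gene, and 47.1% occurred in HSPA1B. The share was 49.9% for HSPA1B, 57.1% for HSPA8, 40.7% for HSP90AA1 and 22.4% for HSPE1. For HSPB1 it was 44%, all of it matched by the pseudogene HSP25-PS1. No window of DNAJB1 or BAG3 was shared. How the reads of such windows were divided is not given in the sources used here, so the split between HSPA1A and HSPA1B is uncertain, and their sum is given beside them.

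At 7 dpi, the stress-inducible HSP70 pair and HSPB1 were higher in ApoE4 than in ApoE3, and the other members were close to equal. Of the 8 members, 3 were called higher in ApoE4, against 4.76% of all rows, and 0 were called higher in ApoE3, against 3.78% of all rows. The median ratio over the members was -0.12, while the median over all genes with a mean of at least 1 FPKM was 0.0018, so both genotypes were on the same scale at this time point. Calls depended on the level, and 4.02% of the genes with a mean of 10 to 100 FPKM were called higher in ApoE4, compared with 8.26% of those with 1 to 10 FPKM. In bulk tissue, fewer cells of a type and less RNA per cell cannot be told apart for any of these genes.

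HSPA1A was at 25.2 FPKM in ApoE3 and 40.4 FPKM in ApoE4, a ratio of -0.66, or 1.58-fold higher in ApoE4. HSPA1B was at 3.15 and 5.73 FPKM, a ratio of -0.70. Summed, the pair was at 28.3 FPKM in ApoE3 and 46.2 FPKM in ApoE4, a ratio of -0.69, so the direction does not rest on how reads were split between them. Across all rows, 0.998% had a ratio as low as that of HSPA1A or lower. The level of HSPA1A was 7.98 times that of HSPA1B in ApoE3 and 7.06 times in ApoE4.

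The cognate HSP70 did not follow the inducible pair. HSPA8 had a ratio of 0.07, so the sum of the inducible pair was 2.59% of the HSPA8 level in ApoE3 and 4.45% in ApoE4. Such a share within a group does not depend on the scaling between groups. HSPB1 showed the same direction, with a ratio of -0.57 (1.48-fold higher in ApoE4), and its level was 7.70% of that of HSPA8 in ApoE3 and 12.1% in ApoE4.

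The partners of HSP70 among the members were not called. DNAJB1, the J-domain protein that stimulates the ATPase of inducible HSP70, was at 26.6 FPKM in ApoE3 and 25.4 FPKM in ApoE4 (ratio 0.06). BAG3, the nucleotide exchange factor that links HSP70 and small heat shock proteins to autophagy, was at 21.7 and 22.7 FPKM (ratio -0.06). HSP90AA1 had a ratio of 0.10. HSPE1, the mitochondrial co-chaperonin, was at 25.4 and 28.9 FPKM (ratio -0.18). These 5 members, HSPA8 included, thus lay between -0.18 and 0.10, although DNAJB1, BAG3, HSP90AA1 and HSPE1 belong, like HSPA1A and HSPB1, to the genes known to respond to heat shock.

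**Figure D2:**
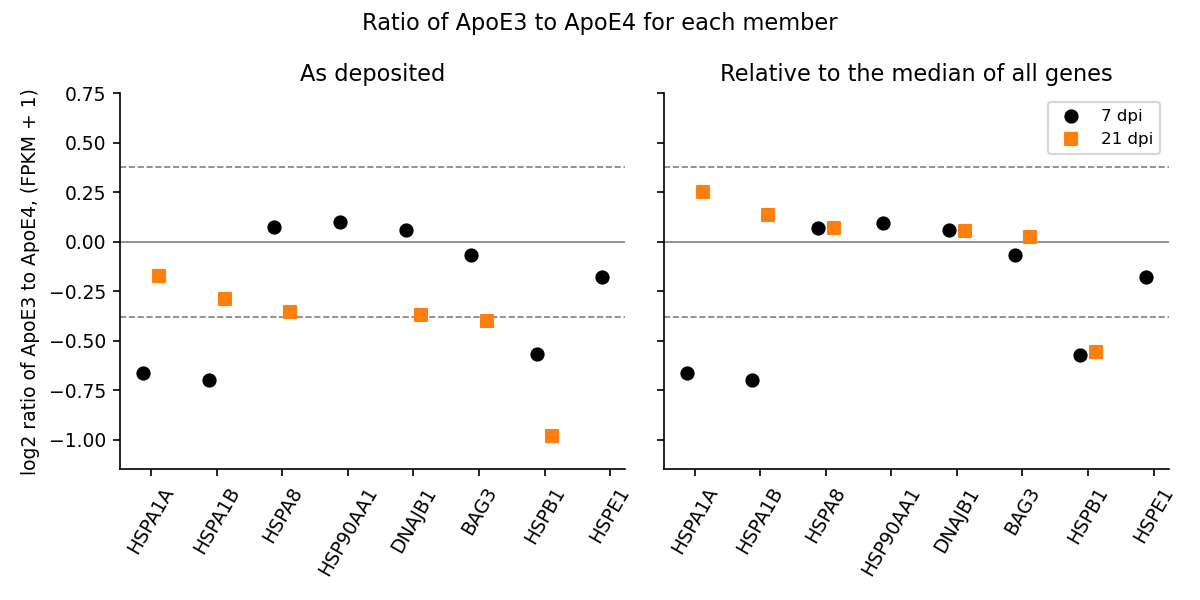
Ratio of ApoE3 to ApoE4 (log2 of FPKM plus 1) of each member at 7 dpi (black circles) and 21 dpi (orange squares), as deposited on the left and relative to the median of all genes at that time point on the right, with dashed lines at 1.3-fold. On the right, HSPB1 is low at both time points (-0.57 and -0.56), whereas HSPA1A is at -0.67 at 7 dpi and at 0.25 at 21 dpi.

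At 21 dpi the ratios of all genes were shifted. The median ratio over genes with a mean of at least 1 FPKM was -0.42, and the FPKM values of all rows summed to 1.35 times as much in ApoE4 as in ApoE3, compared with 1.0001 times at 7 dpi. Therefore each ratio at 21 dpi is also given relative to that median. As deposited, all 6 listed members were lower in ApoE3, as were 93.8% of all rows. Called higher in ApoE4 were 2 of 6, HSPB1 and BAG3, where 58.9% of all rows were called that way. None of the 6 was called higher in ApoE3, against 2.02% of all rows. Relative to the median, 1 of 6 was called higher in ApoE4 (8.07% of all rows) and 0 of 6 higher in ApoE3 (7.47% of all rows), and the 5 members other than HSPB1 were on the ApoE3 side of the median.

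HSPB1 had the lowest ratio of the 6 members at 21 dpi. It was at 104.5 FPKM in ApoE3 and 207 FPKM in ApoE4, a ratio of -0.98 as deposited and of -0.56 relative to the median, or 1.47-fold higher in ApoE4 on that scale. As a share of the HSPA8 level it was 10.4% in ApoE3 and 16.2% in ApoE4. Its genotype ratio relative to the median was thus about the same at both time points.

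The inducible HSP70 pair no longer stood apart at 21 dpi. HSPA1A was at 30.8 FPKM in ApoE3 and 34.9 FPKM in ApoE4, a ratio of -0.17 as deposited and 0.25 relative to the median. HSPA1B was at 2.84 and 3.68 FPKM, or 0.14 relative to the median. As a share of HSPA8, the summed pair was 3.36% in ApoE3 and 3.01% in ApoE4, so its order between the genotypes was opposite to that at 7 dpi. This change of order between the time points was not tested.

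The other listed members stayed near the median of all genes at 21 dpi. HSPA8 was at 1001 FPKM in ApoE3 and 1279 FPKM in ApoE4 (0.07 relative to the median), DNAJB1 at 30.9 and 40.3 FPKM (0.05), and BAG3 at 25.7 and 34.3 FPKM (0.02). The call of BAG3 as deposited, at a ratio of -0.40, was therefore not kept relative to the median.

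**Figure D3:**
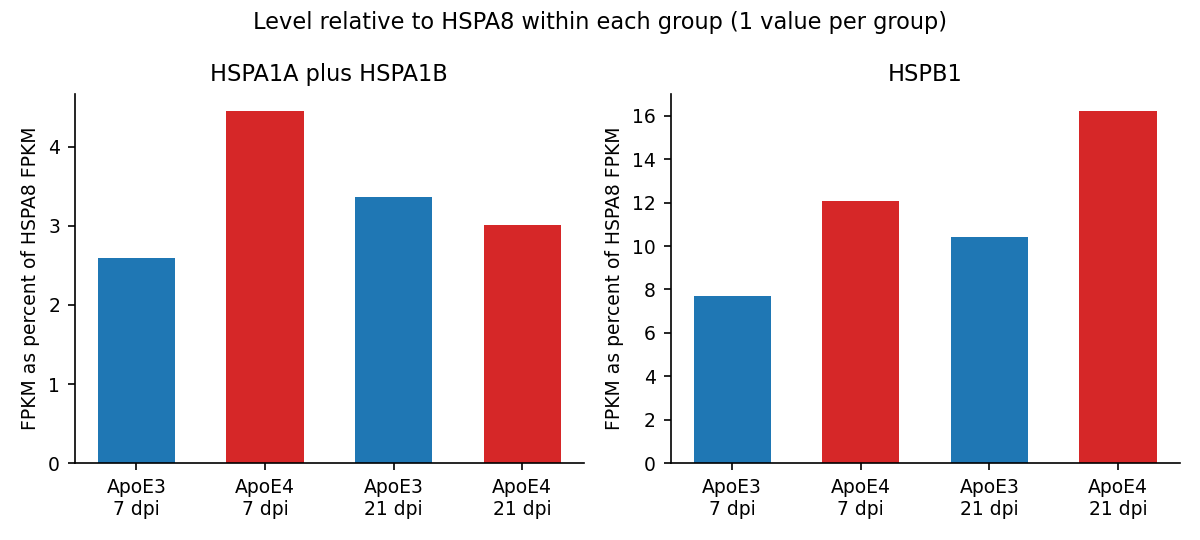
Level of HSPA1A plus HSPA1B (left) and of HSPB1 (right) as a percent of the HSPA8 level in the same group, with 1 bar per group, blue for ApoE3 and red for ApoE4. The inducible pair was at 2.59% and 4.45% at 7 dpi and at 3.36% and 3.01% at 21 dpi, whereas HSPB1 was higher in ApoE4 at both time points.

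The time points were compared within each genotype as a description, because they may have been normalized in separate runs. In ApoE3, the median log2 ratio of 21 to 7 dpi over the 6 members was 0.23, beside a median of 0.09 over all genes listed at both time points. In ApoE4 the medians were 0.44 and 0.52. HSPA1A moved in opposite directions, from 25.2 to 30.8 FPKM in ApoE3 and from 40.4 to 34.9 FPKM in ApoE4, or by 0.20 and -0.73 relative to the overall median. HSPA1B was lower at 21 dpi in both genotypes, from 3.15 to 2.84 FPKM in ApoE3 and from 5.73 to 3.68 FPKM in ApoE4, or by -0.20 and -1.05 on that scale, so the direction of the pair differed between its genes in ApoE3. The split of reads between them is uncertain. Their sum went from 28.3 to 33.7 FPKM in ApoE3 and from 46.2 to 38.5 FPKM in ApoE4. HSPB1 moved by 0.22 and 0.20 on that scale, and HSPA8 by -0.21 and -0.22. DNAJB1 (0.12 in both) and BAG3 (0.15 and 0.05) moved little.

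The promoters of the members whose ratios stood out at 7 dpi are shown with that of HSPE1, because the heat shock element is the feature by which HSF1 recognizes these genes. The sequences are from RefSeq (GRCm38.p6). Promoters of 7 of the 10 members were matched, and those of HSPA8, HSP90AA1 and CRYAB were not analysed here. Each runs from 150 bases before the start of the gene to the base before it, on the gene's strand. Capitals mark matches to GAANNTTC or TTCNNGAA, which are 2 inverted units of the heat shock element and were searched on both strands, where each motif is its own reverse complement.
Hspa1a, chr17:34972157-34972306, minus strand: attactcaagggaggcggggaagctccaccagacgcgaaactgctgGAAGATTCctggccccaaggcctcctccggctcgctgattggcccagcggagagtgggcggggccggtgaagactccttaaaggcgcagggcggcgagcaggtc
Hspa1b, chr17:34959239-34959388, minus strand: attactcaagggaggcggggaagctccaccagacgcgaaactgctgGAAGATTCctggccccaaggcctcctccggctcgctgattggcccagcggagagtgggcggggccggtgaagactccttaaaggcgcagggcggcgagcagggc
Hspb1, chr5:135887769-135887918, plus strand: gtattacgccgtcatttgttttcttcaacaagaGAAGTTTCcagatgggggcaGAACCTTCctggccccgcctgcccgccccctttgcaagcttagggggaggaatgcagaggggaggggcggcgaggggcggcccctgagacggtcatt
Hspe1, chr1:55087998-55088147, plus strand: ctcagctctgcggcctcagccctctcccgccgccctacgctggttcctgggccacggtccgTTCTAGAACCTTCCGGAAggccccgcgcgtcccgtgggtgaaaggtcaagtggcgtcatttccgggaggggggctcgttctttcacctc

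The windows of Hspa1a and Hspa1b had the same base at 149 of 150 positions, with 1 match each, whose first base lay 104 bases before the start. Hspb1 had 2 matches and Hspe1 had 3 that overlap. In Hspe1 they join into 1 run of alternating units. It holds the 3-unit motif GAANNTTCNNGAA and its reverse complement TTCNNGAANNTTC, which overlap. In the 250 bases before the start, 12.8% of all 32851 promoters held a 2-unit match and 0.466% a 3-unit match. Of the 7 members matched, 5 had a 2-unit match, the ones printed and Hsph1, whereas Dnajb1 and Bag3 had none. Only exact matches within these 250 bases were sought, so imperfect or more distant units would be missed. The promoter window of Hspe1 overlaps that of Hspd1, the gene of its chaperonin partner on the opposite strand, by 285 of 300 bases. HSPD1, chosen for this reason after its values were seen, was at 136 FPKM in ApoE3 and 151 FPKM in ApoE4 at 7 dpi, a ratio of -0.15, next to the -0.18 of HSPE1. A match describes letters in a window. It does not show that a factor binds there.

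Genes of the same chaperone systems outside the members were close to equal at 7 dpi. Over 7 lists of other cytosolic chaperones and heat shock factors, 0 of 65 listed genes were called in either direction, with ratios from -0.32 to 0.38 and a median of -0.03. The gene nearest to a call was HSPA12A, a distant HSP70 relative, with 175 and 135 FPKM, chosen after its values were seen. The lists were HSP70 and HSP110 chaperones (6 genes, median 0.01), HSP90 and its cochaperones (16 genes, -0.06), J-domain proteins (14 genes, 0.03), exchange factors and BAG proteins (8 genes, -0.03), small heat shock proteins (4 genes, -0.02), chaperonin CCT and prefoldin (13 genes, -0.03), and heat shock factors with their regulators (4 genes, 0.05). HSF1 itself was at 161 FPKM in ApoE3 and 171 FPKM in ApoE4, and the constitutive HSP90AB1 at 596 and 623 FPKM, both named after their values were seen. Thus HSPA1A, HSPA1B and HSPB1 were the called genes among the 73 listed genes of these lists and the members. All 3 had their larger value in ApoE4, and 3 of 73 is not above the 4.76% of rows called that way. HSPA1A and HSPA1B also share many read-length windows, so their calls are not separate. Not all of the 73 act in the cytosol as chaperones, since they include HSPE1, the J-domain protein DNAJB9, which resides in the endoplasmic reticulum (14.7 and 15.0 FPKM), and HSPB11, a subunit of the intraflagellar transport complex.

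Mitochondrial chaperones (10 genes, median 0.02) and proteasome subunits (31 genes, median 0.02) also had 0 calls at 7 dpi. Of 7 other genes known as HSF1 targets, 1 was called, the heme oxygenase HMOX1, at 65.4 FPKM in ApoE3 and 90.6 FPKM in ApoE4 (ratio -0.46). The list with the most calls was that of endoplasmic reticulum chaperones, where 11 of 16 were called higher in ApoE4 and 1 higher in ApoE3, with a median of -0.60. Among them were MANF at 51.4 and 90.1 FPKM (ratio -0.80) and the disulfide isomerase PDIA6 at 29.1 and 52.3 FPKM (-0.83), and the 1 higher in ApoE3 was the transcription factor DDIT3 (0.48). The reticulum's own HSP70, HSPA5, had 249 and 410 FPKM (-0.72), and its HSP90, HSP90B1, 199 and 297 FPKM (-0.58). DDIT3, HSPA5 and HSP90B1 were chosen after their values were seen. The ratio of HSPA5 was thus near that of HSPA1A, while HSPA8 and HSP90AA1, the cytosolic counterparts, were at 0.07 and 0.10. Of 15 immediate early genes, 3 were called higher in ApoE4, EGR2, NR4A1 and IER2, with ratios of -0.62, -0.59 and -0.45, and 12 of the 15 had a negative ratio (median -0.24).

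**Figure D4:**
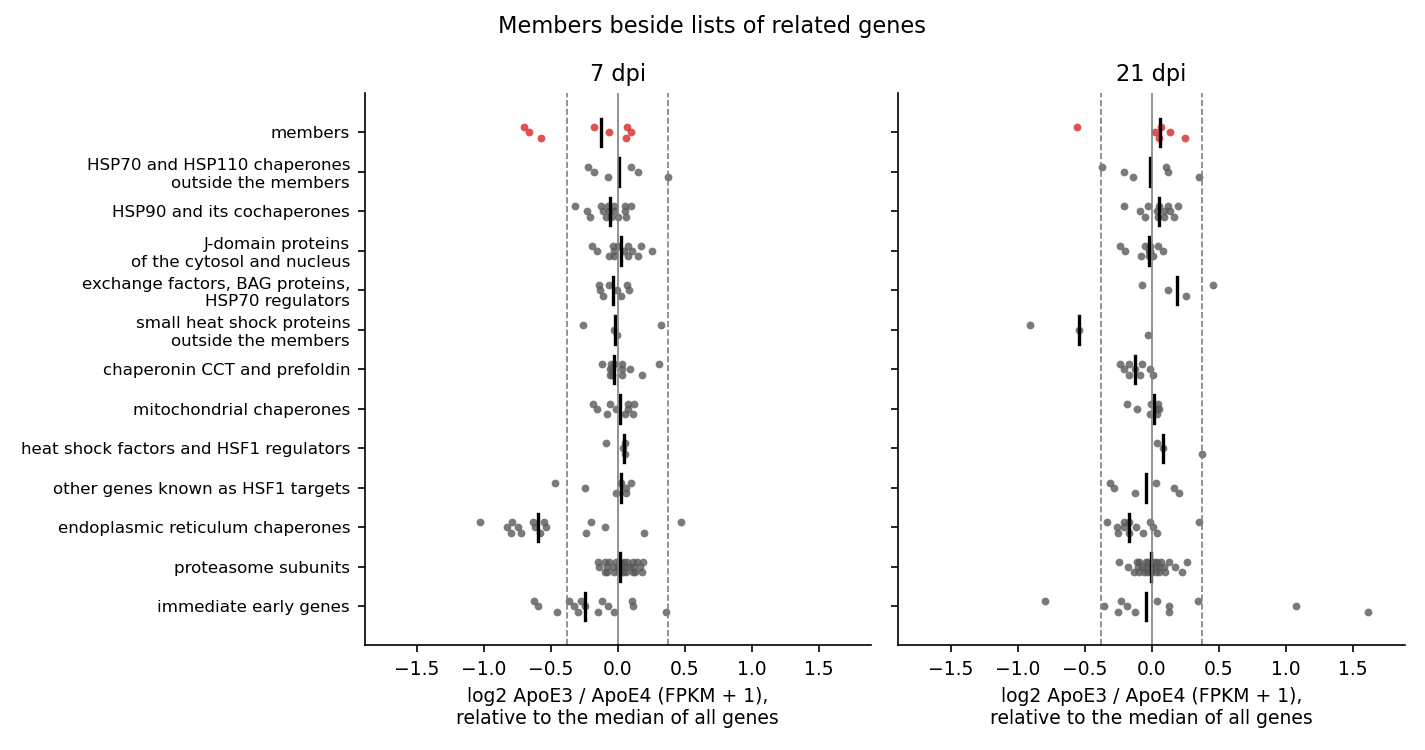
Ratio of ApoE3 to ApoE4 (log2 of FPKM plus 1, centred on the median of all genes) of the members (red) and of 12 lists of related genes (grey) at 7 dpi (left) and 21 dpi (right), with 1 point per gene, a black bar at each median and dashed lines at 1.3-fold. At 7 dpi 3 members, 11 endoplasmic reticulum chaperones, HMOX1 and 3 immediate early genes lie left of the line, and at 21 dpi HSPB1, HSPB11, HSPB7 and EGR3 do.

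At 21 dpi, 32 of the 49 listed genes of the same 7 lists were called higher in ApoE4 as deposited, where 58.9% of all rows were. Relative to the overall median, 2 were called higher in ApoE4 and 2 higher in ApoE3, with a median of -0.01. Both of the former were in the list of small heat shock proteins, to which HSPB1 also belongs by family. HSPB11 was at 25.3 FPKM in ApoE3 and 65.1 FPKM in ApoE4 (-0.91 relative to the median). HSPB7, a muscle-enriched small heat shock protein named after its values were seen, was at 0.371 and 1.68 FPKM (-0.55). HSPB8, the usual partner of BAG3, was at 67.3 and 92.6 FPKM (-0.03). The genes called higher in ApoE3 were BAG6 (0.46) and HSF1 (0.38), whose level of 288 FPKM in ApoE3 and 297 FPKM in ApoE4 put it at the 1.3-fold line. By list, the medians on that relative scale were -0.01 for HSP70 and HSP110 chaperones, 0.05 for HSP90 and cochaperones, -0.02 for J-domain proteins, 0.19 for exchange factors and BAG proteins, -0.55 for the list named small heat shock proteins (3 genes, HSPB11 included, so that the median is the value of HSPB7), -0.13 for CCT and prefoldin, and 0.09 for heat shock factors.

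The remaining lists had few calls relative to the median at 21 dpi. There were 0 among 8 mitochondrial chaperones (median 0.02), 6 other HSF1 targets (-0.04), 13 endoplasmic reticulum chaperones (-0.17) and 28 proteasome subunits (-0.01). Of 12 immediate early genes (-0.04), EGR3 (-0.79), named after its values were seen, was called higher in ApoE4, and EGR2 (1.07) and NR4A2 (1.62) higher in ApoE3. EGR2 was at 33.1 and 51.6 FPKM at 7 dpi and at 73.0 and 46.1 FPKM at 21 dpi in ApoE3 and ApoE4, so its order between the genotypes also changed.

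Cell type markers were examined beside the members that stood out. Of 13 microglia and macrophage markers, 3 were called higher in ApoE4 at 7 dpi (LYZ2, C1QA and C1QB, with ratios of -0.43, -0.42 and -0.41), with a median of -0.28. Their summed level was 12101 FPKM in ApoE3 and 15552 FPKM in ApoE4, led by LYZ2 at 4522 and 6076 FPKM. All 16 neuron markers had a positive ratio (median 0.26), 3 of them called (SNAP25, GAD1 and CHAT), and their sum was 10947 and 8606 FPKM, led by MAP2 at 4119 and 3184 FPKM. Of 8 fibroblast markers, 2 were called higher in ApoE4 (COL3A1 and LUM; median -0.33), with sums of 711 and 904 FPKM, led by COL1A1 at 212 and 270.0 FPKM. The part of these lists in the ratios of HSPA1A, HSPA1B and HSPB1 was not tested.

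Other lists at 7 dpi had medians near 0 or on the ApoE3 side. The 11 astrocyte markers had 0 calls (median 0.06), and GFAP, the most abundant, was at 12395 FPKM in ApoE3 and 12386 FPKM in ApoE4. Of 10 skeletal muscle markers (median 0.23), MYH7, MYLPF and TNNT3 were called higher in ApoE3, and MYL1, named after its values were seen, higher in ApoE4. In all, 4 of the 10 had a negative ratio. Their sum was 104 FPKM in ApoE3 and 80.6 FPKM in ApoE4, a difference made mostly by TNNT3 at 45.7 and 26.5 FPKM, and the part of muscle RNA in the HSPB1 ratio was not tested. There were 0 calls among 9 oligodendrocyte (median 0.11), 10 endothelial (-0.01) and 5 erythrocyte markers (0.04). Among 8 Schwann cell markers (-0.06), NCMAP (0.38) was called higher in ApoE3. Of 5 sensory ganglion neuron markers (0.30), 2 were called higher in ApoE3, CALCA (0.48) and ISL1 (0.48), the latter at 1.03 and 0.457 FPKM and named after its values were seen. CALCA led the list at 377 and 269 FPKM.

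At 21 dpi the ApoE3 and ApoE4 groups differed in markers of skeletal muscle, Schwann cells and sensory ganglion neurons. The origin of this RNA was not tested. Relative to the overall median, 9 of 10 skeletal muscle markers were called higher in ApoE4 (median -2.66). Their sum was 58.1 FPKM in ApoE3 and 793 FPKM in ApoE4, led by TNNT3 at 22.5 and 515 FPKM, and 3 of the 10 were under 1 FPKM in at least 1 group, of which MYH4 was at 0 in ApoE3. Schwann cell markers (8 of 11 higher in ApoE3, median 1.85) and sensory ganglion neuron markers (10 of 12 higher in ApoE3 and 1 in ApoE4, median 2.04) moved the other way. NCMAP, a protein of peripheral myelin, was at 122 FPKM in ApoE3 and 35.7 FPKM in ApoE4, and CALCA, the most abundant sensory ganglion marker, at 702 and 829.5 FPKM. The sums were 928 FPKM in ApoE3 and 1046 FPKM in ApoE4 for the sensory ganglion list and 203476 and 280154 FPKM for the Schwann cell list, which holds MBP, also made by oligodendrocytes, at 201348 and 278678 FPKM. Of the sensory ganglion markers, TRPV1 and MRGPRD were at 0 in ApoE4, and both are named after their values were seen. Relative to the median, fibroblast markers were also higher in ApoE3 in 5 of 7 cases (median 0.67), with sums of 144 and 108 FPKM. These were DCN (61.9 and 9.37 FPKM) and COL1A2, and, named after their values were seen, COL1A1, COL3A1 and LUM, while PDGFRA, the most abundant in ApoE4, was at 42.0 and 58.8 FPKM. As deposited, 3 fibroblast markers were called higher in ApoE3 and 1 higher in ApoE4 (median 0.25). HSPB1 is known to be abundant in muscle and in sensory neurons, and these lists moved in opposite directions at 21 dpi. Their part in the HSPB1 ratio was not tested.

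Glial markers at 21 dpi lay on the ApoE4 side. Of 11 microglia and macrophage markers, 6 were called higher in ApoE4 relative to the median (median -0.45), with sums of 2044 FPKM in ApoE3 and 3809 FPKM in ApoE4, led by C1QC at 622 and 1139 FPKM. Of 11 astrocyte markers, 2 were called, GFAP (-0.48) and AQP4 (-0.40), with a list median of -0.24, sums of 12491 and 22361 FPKM, and GFAP at 8201 and 15313 FPKM. The 6 called microglia and macrophage markers were ADGRE1 (-0.76), LYZ2 (-0.58), C1QB (-0.54), AIF1 (-0.52), C1QA (-0.49) and C1QC (-0.45), the last named after its values were seen. Over all 11 markers of that list the ratios ran from -0.76 to -0.11, and HSPB1 was at -0.56. The part of the glial lists in the HSPB1 ratio was not tested. Calls relative to the median were few among 10 oligodendrocyte (1 higher in ApoE4, ASPA, median -0.12), 14 neuron (2 higher in ApoE4, NEFM and NEFH, -0.08), 8 endothelial (1 in each direction, EMCN and CDH5, 0.09) and 4 erythrocyte markers (0, 0.14).

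**Figure D5:**
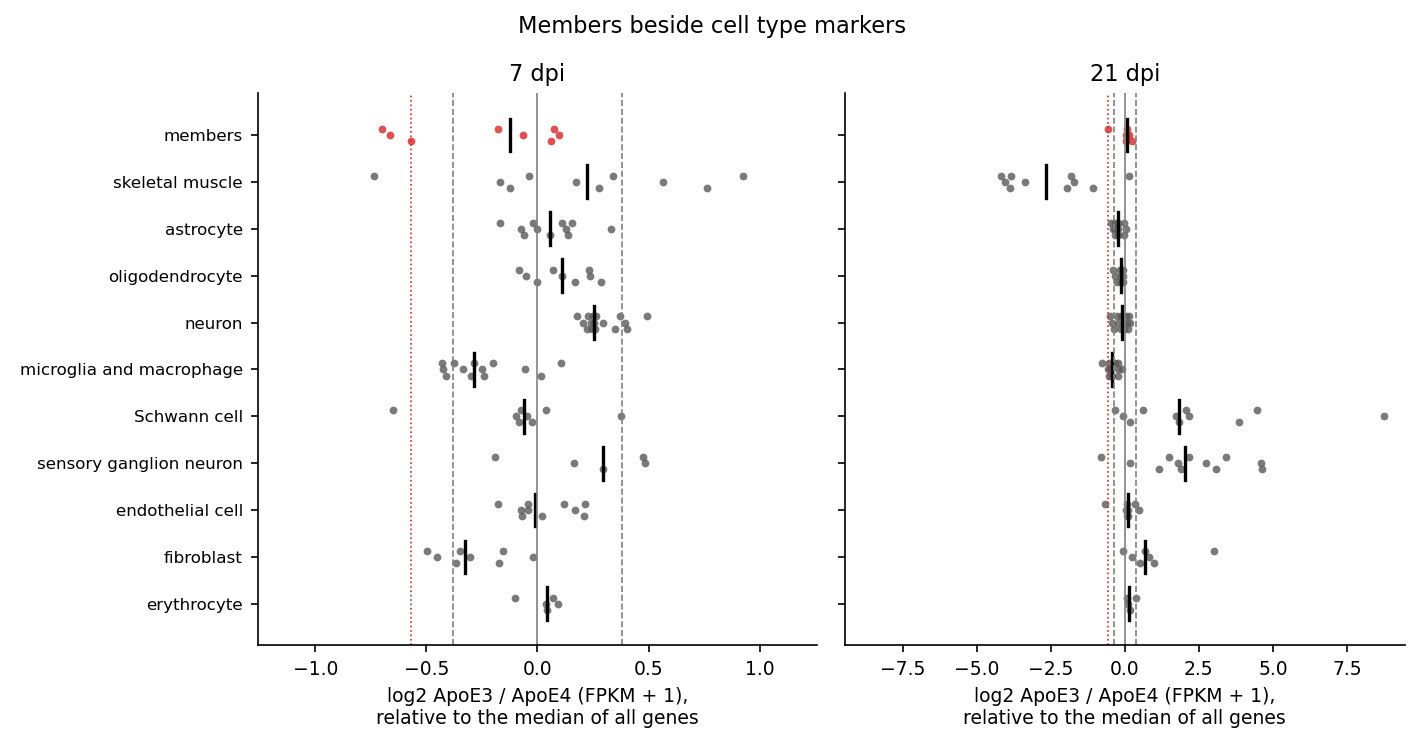
Ratio of ApoE3 to ApoE4 (log2 of FPKM plus 1, centred on the median of all genes) of the members (red) and of 10 lists of cell type markers (grey) at 7 dpi (left) and 21 dpi (right, with a wider axis), with a black bar at each median, dashed lines at 1.3-fold and a dotted red line at HSPB1. Skeletal muscle markers lie far left (median -2.66) and Schwann cell and sensory ganglion neuron markers far right (1.85 and 2.04) at 21 dpi.

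The genes whose levels over the 4 groups were most like those of a member were sought among 9683 other genes, by the root mean square distance between log2 profiles centred on their own mean. Nearest to HSPA1A were MINDY4, SIGIRR, TRDMT1, RNF43 and NUPL2, with distances from 0.038 to 0.071, beside a median of 0.378 over all genes. MINDY4, a deubiquitinase of low level, had 7.15, 11.3, 8.86 and 9.52 FPKM in ApoE3 and ApoE4 at 7 dpi and ApoE3 and ApoE4 at 21 dpi. Among the nearest 5 to HSPB1 were STAP2, IGSF9, LINS1 and MUTYH (0.059 to 0.084). STAP2, a signal-transducing adaptor, had 6.05, 8.69, 7.62 and 16.9 FPKM in the same order. Nearest to HSPA8 were MMACHC, ANK3, 2310057M21RIK, CFAP97 and PLXNA3 (0.0089 to 0.017), of which ANK3, the scaffold of the axon initial segment, had 2374, 2218, 2141 and 2765 FPKM. No chaperone was among the 15, and a profile over 4 values can be matched by many genes.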

How the data were processed

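The authors deposited FPKM plus 1 per gene and group, and 1 was subtracted here. The submitters' processing notes name STAR 2.5.4b, SAMtools 0.1.7 and Cuffdiff 1.3.0, and reads were down-sampled to equal numbers before alignment. By the study's methods 1 replicate aligned at a clearly lower rate than the others. Its group is not given in the sources used here, so its effect on the group values is unknown. The genome build and annotation are not given in the sources used here. The deposited table's p-values, q-values and fold changes, and a second table of the authors' selected genes, were not used. Ratios were computed with a pseudocount of 1 and called past 1.3-fold. With 1 value per group, no test was run. Reads per gene are unknown, so no counting error is given.

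The members and gene lists were chosen with earlier results of these data known. Named genes were the 10 members, up to 5 list genes per comparison past 1.3-fold (as deposited or relative to the median of all genes) with a mean of at least 5 FPKM, and the 5 genes most like HSPA1A, HSPB1 and HSPA8. Not all of them are printed, and the values of some genes are not reported here. Motifs were searched in RefSeq promoters, and read-length windows in GENCODE vM21 transcripts. Alternatives were pseudocounts of 0.1 and 0.01, folds of 1.5 and 2, centring, summing HSPA1A and HSPA1B, a minimum mean of 1 FPKM, and leaving out members. Python 3.11.15, numpy 2.4.6, pandas 2.3.3 and matplotlib 3.10.9 were used, and the calculation of the calls was tested on simulated data, which says nothing of the spread between mice.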

Additional observations from a re-analysis of the deposited data

Results flagged for a closer look

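Some members had genotype ratios of opposite sign at 7 and 21 dpi, with 1 value per group. None of these differences between the time points was tested. Relative to the median of all genes, the log2 ratio of ApoE3 to ApoE4 was -0.67 at 7 dpi and 0.25 at 21 dpi for HSPA1A, -0.70 and 0.14 for HSPA1B, and -0.067 and 0.023 for BAG3, whose values were both near 0. As deposited, where the median of all genes was itself at -0.42 at 21 dpi, it was 0.074 and -0.35 for HSPA8 and 0.061 and -0.37 for DNAJB1, and relative to that median both were on the ApoE3 side at both time points. The immediate early gene EGR2 was past 1.3-fold in opposite directions, at -0.63 and 1.07 relative to the median.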

How the results depend on the processing

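The numbers of members called higher in ApoE3 were 0 at both time points under every alternative run. At a minimum fold of 2, no member was called higher in ApoE4, with 0 at 7 dpi instead of 3 and 0 at 21 dpi instead of 2. At a fold of 1.5, 1 was called at 21 dpi and 2 at 7 dpi, where HSPB1 (1.48-fold) lost its call. With pseudocounts of 0.1 and 0.01, 3 were called at 21 dpi, as DNAJB1 gained a call at -0.38. Centring on the median of all genes gave 1 called at 21 dpi, turned the median over the members at 21 dpi from -0.36 to 0.062, turned the ApoE4 median of 21 to 7 dpi from 0.44 to -0.086, and at 21 dpi turned BAG3 from -0.40 to 0.023, HSPA1A from -0.17 to 0.25, HSPA1B from -0.29 to 0.14, HSPA8 from -0.35 to 0.07 and DNAJB1 from -0.37 to 0.05, while HSPB1 went from -0.98 to -0.56. Centring acts by subtracting the shift of all genes. With HSPA1A and HSPA1B summed, the ApoE4 median of 21 to 7 dpi was 0.57, and without HSPB1 and CRYAB it was 0.30. Both leave 1 value fewer, but they take it from opposite ends. Summing merges the lowest values, HSPA1A (-0.21) and HSPA1B (-0.52), and the median rises. Leaving out HSPB1 (0.72), the highest value, lowers the median. Counting the gains and losses of 1 call from 3 to 2 or from 2 to 3 as within that limit, the other 41 values of counts and medians stayed within 1.5 times for counts or within 0.1 for medians. By pseudocount, HSPA1B at 7 dpi moved from -0.70 to -0.84 and -0.86 with pseudocounts of 0.1 and 0.01. Leaving out HSPE1 could not be run where it was not listed. No paired analysis was possible because the table holds 1 value per group, and for the same reason no mouse could be left out.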
